A study of Mus musculus with 24 samples.

Results

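The heat shock chaperones described here are 10 mouse genes, chosen by name, of the 55421 genes in the count table: the HSP70 family members Hspa1a, Hspa1b, Hspa8 and Hsph1, the cytosolic HSP90 genes Hsp90aa1 and Hsp90ab1, the small heat shock protein genes Hspb1 and Hspb8, and the co-chaperone genes Dnajb1 and Bag3. All 10 passed the filter on low counts and were among the 18046 genes tested. Earlier results of these data were known when the 10 were chosen, so their counts beside the shares of all genes are descriptive. Their levels were measured by RNA sequencing of alveolar epithelial cells (AECs), sampled on day 0 (D0) and after 1, 3 and 7 days (D1, D3 and D7) of culture. AECs came from Krt8+/+ mice (labelled WT) or from mice that lack keratin 8 in all cells (Krt8-/-, labelled KO), an intermediate filament protein of simple epithelia. The 8 groups of genotype and day held 3 libraries each, 24 in all. In the study's design, type II AECs (AEC2s), the surfactant-producing cells of the alveolus, were placed in flat 2D culture on a stiff, laminin-coated surface, where they move toward a type I-like state, and the question was whether loss of keratin 8 alters that course or the stress programmes that go with it, protein quality control among them. The labels give each library a batch and a biological replicate number, 1 to 3, that both genotypes and all 4 days share.

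Heat shock proteins are molecular chaperones: HSP70 proteins bind unfolded stretches of client proteins in cycles of ATP hydrolysis, J-domain proteins start that cycle, and nucleotide exchange factors end it. HSP90 proteins act later, on kinases, receptors and other near-native clients, and small heat shock proteins hold unfolding proteins without ATP. Under heat, oxidants or a load of misfolded protein, heat shock factor 1 binds inverted repeats of the letters GAA in the promoters of these genes and raises their transcription within minutes, and some of the genes are transcribed at a high level in unstressed cells as well.

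Members with a known start site were first described by the sequence around it. Paired GAA units were looked for there, since heat shock factors bind inverted repeats of these letters. RefSeq start sites (GRCm38.p6) were at hand for 7 of the 10 members, and not for Hspa8, Hsp90aa1 or Hsp90ab1. Shown are the 250 bases before the start of Hspa1a (chr17:34972157-34972406, minus strand), Hspa1b (chr17:34959239-34959488, minus strand) and Hspb1 (chr5:135887669-135887918, plus strand), and 28 bases around the unit in Hspb8 (chr5:116422844-116422871, minus strand), Hsph1 (chr5:149636287-149636314, minus strand) and Bag3 (chr7:128523605-128523632, plus strand). Each is written 5′ to 3′ on the strand of its gene, with capitals marking the GAA and TTC units that stand in a pair or in a run.
Hspa1a: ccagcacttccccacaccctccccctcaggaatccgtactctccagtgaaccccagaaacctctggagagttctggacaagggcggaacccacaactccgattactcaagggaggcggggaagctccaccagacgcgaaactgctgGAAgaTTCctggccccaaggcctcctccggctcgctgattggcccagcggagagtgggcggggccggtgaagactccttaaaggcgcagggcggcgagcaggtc
Hspa1b: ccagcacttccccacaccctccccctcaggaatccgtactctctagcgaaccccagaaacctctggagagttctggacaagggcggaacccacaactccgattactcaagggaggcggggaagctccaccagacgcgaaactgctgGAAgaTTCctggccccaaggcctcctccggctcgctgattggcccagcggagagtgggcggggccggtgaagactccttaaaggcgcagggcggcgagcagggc
Hspb1: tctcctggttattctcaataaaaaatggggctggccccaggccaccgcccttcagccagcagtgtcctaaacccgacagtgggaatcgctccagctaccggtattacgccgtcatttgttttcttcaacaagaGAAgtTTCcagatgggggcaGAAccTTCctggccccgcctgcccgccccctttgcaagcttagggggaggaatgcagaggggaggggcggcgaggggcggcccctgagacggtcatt
Hspb8: aagccaggaGAAgtTTCtaggctcgcga
Hsph1: taaaatgctgcagaTTCtgGAAagTTCt
Bag3: aagttctctggatgggaccaGAAgtTTC

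Hspa1a and Hspa1b, which lie next to each other on chromosome 17, were identical at 247 of these 250 bases, and their unit pair lay at the same place, -104 to -97 from the first transcribed base (counted as 0). Hspb1 carried 2 pairs, at -117 to -110 and at -97 to -90. In Hspb8 (2 to 9) and Bag3 (42 to 49) the pair lay just after the start site. The pair of Bag3 ends where its window ends, so a longer run there would not have been seen. Hsph1 had a pair at -33 to -26 and, at 36 to 48, a run of 3 units, and from a second RefSeq start site these lie at -54 to -47 and at 15 to 27. No pair was found in the windows of Dnajb1, which has more than 1 RefSeq start site. The pair (GAANNTTC or TTCNNGAA, which read the same on both strands and may overlap in a run) occurred in 15.1% of 32851 promoter windows of 300 bases, and a run of 3 units in 0.603% of them. A match describes the letters of the window and is no evidence that a factor was bound there in these cells.

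Total counts ranged from 10184439 to 19483386 per library, and the 10 chaperone genes together took from 0.209% to 0.785% of them. Levels are given below as counts per 1000000 counts, with totals scaled by TMM factors (CPM), in the order of replicates 1, 2 and 3. Krt8 stood at 485 to 5092 CPM in the 12 Krt8+/+ libraries and at 21.2 to 47.4 CPM in the 12 Krt8-/- libraries. The summed level of 10 AEC2 marker genes was 265632 to 355461 CPM on D0, so freshly isolated libraries matched their label, and it was 18436 to 108685 CPM on D1, 960 to 2762 CPM on D3 and 241.7 to 3226 CPM on D7. Each library is RNA of a whole culture, in which fewer cells of a type and less RNA per cell cannot be told apart.

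Among the 10 genes, Hspa8 and the HSP90 genes were the most abundant per length in Krt8+/+ cells on D0. Per kilobase of exon, Hspa8 stood at 356 ± 72.1 CPM, Hsp90ab1 at 331 ± 70.9 CPM and Hsp90aa1 at 206 ± 48.3 CPM (SD, n = 3, as for the other levels of this scale). Hspb1 followed at 80.0 ± 23.9 CPM per kilobase and Dnajb1 at 35.1 ± 9.62 CPM per kilobase. Hspa1b (24.9 ± 16.5 CPM per kilobase), Hspb8 (23.8 ± 2.06 CPM per kilobase) and Bag3 (16.9 ± 3.52 CPM per kilobase) were next, and Hsph1 (13 ± 7.87 CPM per kilobase) and Hspa1a (10.7 ± 7.28 CPM per kilobase) were lowest. In this order the ranges of mean ± SD overlapped between Hspa8 and Hsp90ab1, from Dnajb1 to Hspa1b to Hspb8, and from Bag3 to Hsph1 to Hspa1a, and other neighbours did not overlap. On D1 the order had changed at the top, with Hsp90ab1 at 701 ± 53.6 CPM per kilobase, Hsp90aa1 at 501 ± 69.9 CPM per kilobase and Hspa8 at 323 ± 48.8 CPM per kilobase, and Hspa1b had reached 126 ± 77.3 CPM per kilobase. With the length of the longest transcript in place of all exons, Hspa8 on D0 came to 484 CPM per kilobase and stayed above Hsp90ab1 at 394 CPM per kilobase. Counts placed on other genes that share sequence with a member are left out of these levels. Gm15459, which shares sequence with Hspa8, had 353752 counts against 479953 for Hspa8. Gm12346, which shares sequence with Hsp90aa1, had 30856 against 407895. The place of Hspa8 in the order of D0 and of D1 is therefore uncertain. So are the places of Hspa1a and Hspa1b, since 58.8% of the 50-base stretches of Hspa1a occurred in Hspa1b.

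**Figure D1:**
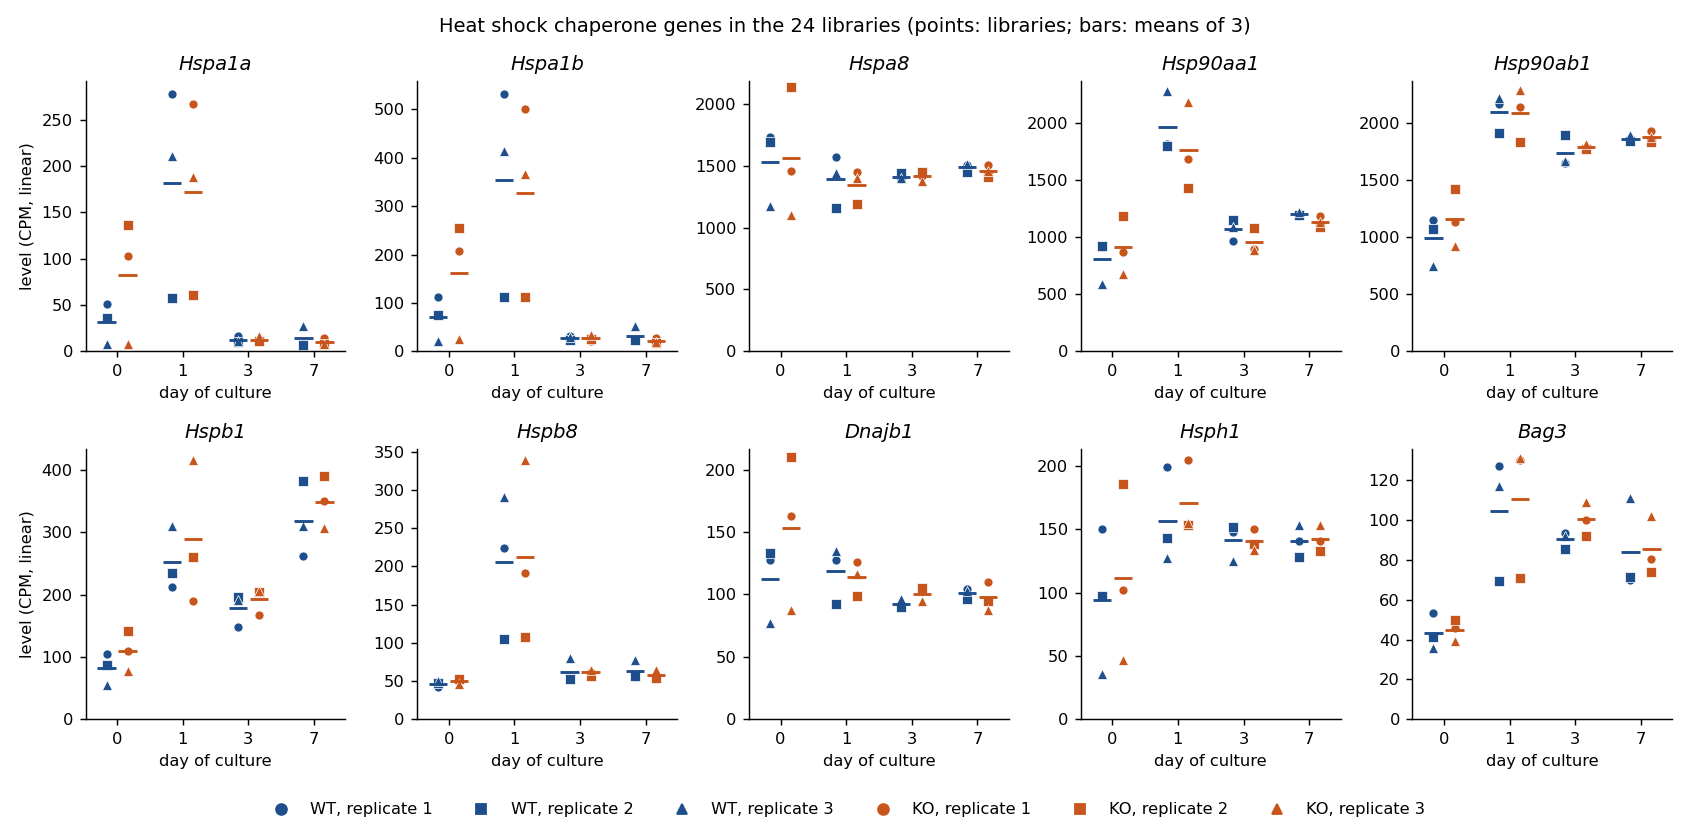
Level of each of the 10 chaperone genes in all 24 libraries (CPM, linear axes that start at 0) against day of culture, with WT and KO in separate colours, 1 marker shape per replicate and bars at the group means. The group means of Hspa1a and Hspa1b peak on D1 (57.1 to 278 CPM for Hspa1a in WT) with wide gaps between replicates on D0 and D1, while Hspa8 is nearly level. In KO replicate 2 both genes are lower on D1 than on D0 (Hspa1a 60.6 against 136 CPM, Hspa1b 112 against 254 CPM).

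In Krt8+/+ AECs, 7 of the 10 chaperone genes rose from D0 to D1 and none fell, at an adjusted p under 0.05 by edgeR's quasi-likelihood test with Benjamini-Hochberg adjustment over all genes tested. The same test called 26.2% of all genes higher and 28.5% lower. Of all genes called, 47.9% were higher, and 69.8% when libraries were scaled by their totals without TMM. The median log2 difference was 1.28 over the 10 genes and 0 over all genes. Hspa1a, Hspa1b, Hsp90aa1, Hsp90ab1, Hspb1, Hspb8 and Bag3 were the genes that rose, and for each of them every D1 library lay above every D0 library.

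Hspa1a and Hspa1b encode the stress-inducible HSP70. Each is a single exon, Hspa1a (ENSMUSG00000091971) at chr17:34969190-34972156 and Hspa1b (ENSMUSG00000090877) at chr17:34956436-34959238, both on the minus strand of GRCm38. Gm20481, on the plus strand, overlaps Hspa1a, and the counting is not stated to use strand, so reads of these genes could not be separated. Hspa1a was at 50.5, 36.4 and 8.08 CPM in Krt8+/+ cells on D0 and at 278, 57.1 and 211 CPM on D1. The D1 library of replicate 2 lay just above the highest D0 library, and those of replicates 1 and 3 far above it. The log2 difference was 2.51 ± 0.79 (SE; 95% interval 0.87 to 4.16; adjusted p = 0.0109, edgeR), a 5.70-fold rise, and it was 2.46, 0.65 and 4.68 within replicates 1, 2 and 3. On D3 the gene had dropped to 16.5, 9.72 and 10.8 CPM and on D7 it stood at 8.37, 6.97 and 26.8 CPM. All 3 libraries of D3 were below all 3 of D1, a log2 difference of -3.88 ± 0.84 (adjusted p = 0.00198, edgeR).

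Hspa1b gave the same order of days. It was at 113, 76.0 and 20.8 CPM on D0, at 533, 113 and 415 CPM on D1, at 31.7, 24.2 and 29.2 CPM on D3 and at 22.7, 23.1 and 51.4 CPM on D7. Replicate 2 was again the lowest on D1, and replicate 3 the lowest on D0. The D1 rise came to 2.33 ± 0.70 on the log2 scale (95% interval 0.88 to 3.79, adjusted p = 0.00799, edgeR) and the D3 level was lower than D1 by a log2 difference of -3.64 ± 0.74 (adjusted p = 0.00119, edgeR). Without replicate 1, the D1 rise in Krt8+/+ cells was of like size but no longer passed the test, at 2.59 for Hspa1a (adjusted p = 0.0710, edgeR) and 2.45 for Hspa1b (adjusted p = 0.0524, edgeR). The coding sequences of the pair were identical at 99.6% of aligned bases, and 60.4% of the 50-base stretches of Hspa1a occurred in another gene, so the split of counts between the pair is uncertain. With their counts summed into 1 gene, every call for the pair was kept.

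The HSP90 genes also rose on D1. Hsp90aa1 (ENSMUSG00000021270, chr12:110690605-110702728, minus strand), the more inducible of the cytosolic HSP90 genes, was at 911, 924 and 589 CPM on D0 and at 1822, 1798 and 2286 CPM on D1 in Krt8+/+ cells. The D1 libraries lay far above the D0 libraries, and the log2 difference was 1.28 ± 0.20 (adjusted p = 1.96e-05, edgeR). On D3 it was at 969, 1150 and 1093 CPM, lower than on D1 by a log2 difference of -0.88 ± 0.20 (adjusted p = 0.00264, edgeR). Every D3 library was still above every D0 library, though the test did not call the gene for D3 against D0. The gene stood at 1185, 1193 and 1225 CPM on D7. That D7 level was above D0, a log2 difference of 0.57 ± 0.20 (adjusted p = 0.0170, edgeR) that did not pass without replicate 1 (0.68, adjusted p = 0.0744) or without replicate 3 (0.38, adjusted p = 0.113). The D3 fall did not pass without replicate 1 either (-0.86, adjusted p = 0.0613).

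Hsp90ab1 (ENSMUSG00000023944, chr17:45567775-45573271, minus strand), the constitutive HSP90 gene, rose and stayed up. It was at 1154, 1072 and 752 CPM on D0, at 2170, 1918 and 2218 CPM on D1, at 1653, 1898 and 1670 CPM on D3 and at 1858, 1840 and 1894 CPM on D7. No library of a culture day overlapped D0. The log2 difference from D0 was 1.08 ± 0.16 on D1 (adjusted p = 1.07e-05), 0.81 ± 0.16 on D3 (adjusted p = 0.000211) and 0.91 ± 0.16 on D7 (adjusted p = 5.20e-05), all by edgeR. Of the 50-base stretches of Hsp90aa1, 47.5% occurred in other genes, mostly in Gm12346, whose total count was 30856 against 407895 for Hsp90aa1. For Hsp90ab1 that share was 3.44%.

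Small heat shock proteins gave different courses. Hspb1 (ENSMUSG00000004951, chr5:135887919-135889563, plus strand), which encodes HSP25 and holds unfolding proteins and actin, was at 104, 87.6 and 55.7 CPM on D0, at 212, 235 and 310 CPM on D1, at 148, 197 and 191 CPM on D3 and at 262, 382 and 310 CPM on D7. Every cultured library was above every D0 library. The log2 difference from D0 was 1.61 ± 0.27 on D1 (adjusted p = 4.93e-05), 1.11 ± 0.27 on D3 (adjusted p = 0.00148) and 1.94 ± 0.27 on D7 (adjusted p = 3.88e-06), by edgeR. Its 50-base stretches occurred at 48.8% in the pseudogene Hsp25-ps1, which had 5041 counts in all against 75130 for Hspb1.

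Hspb8 (ENSMUSG00000041548, chr5:116408491-116422864, minus strand), whose product works with that of Bag3 in sending misfolded proteins to autophagy, passed the test against D0 on D1 and not on D3 or D7 with TMM scaling. Krt8+/+ libraries held 41.8, 48.0 and 49.4 CPM on D0 and 224, 105 and 291 CPM on D1. The log2 difference was 2.15 ± 0.33 (adjusted p = 1.96e-05, edgeR), a 4.45-fold rise with no overlap. On D3 it was at 53.2, 53.0 and 80.7 CPM, lower than on D1 by a log2 difference of -1.73 ± 0.33 (adjusted p = 0.000645, edgeR), and on D7 at 55.0, 56.4 and 77.7 CPM. None of its 50-base stretches occurred in another gene.

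Bag3 (ENSMUSG00000030847, chr7:128523616-128546981, plus strand), an exchange factor for HSP70, rose on D1 and kept a higher level. It was at 53.3, 41.2 and 35.6 CPM on D0, at 127, 69.4 and 117 CPM on D1, at 93.5, 85.7 and 91.9 CPM on D3 and at 70.0, 71.3 and 111 CPM on D7. The groups of D1, D3 and D7 each lay above D0 without overlap. The log2 difference from D0 was 1.27 ± 0.24 on D1 (adjusted p = 0.000204), 1.06 ± 0.24 on D3 (adjusted p = 0.000997) and 0.95 ± 0.24 on D7 (adjusted p = 0.00206), by edgeR. Without replicate 3 the D7 difference was 0.58 and did not pass (adjusted p = 0.112). Bag3 overlaps 2610306O10Rik, and the counting is not stated to use strand, so reads of these genes could not be separated.

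The other 3 genes did not pass on D1. Hspa8 (ENSMUSG00000015656, chr9:40800984-40810087, plus strand), the constitutive HSP70, was at 1728, 1688 and 1172 CPM on D0 and at 1569, 1159 and 1440 CPM on D1 in Krt8+/+ cells, with overlapping groups and a log2 difference of -0.14 ± 0.18 (95% interval -0.52 to 0.24, adjusted p = 0.543, edgeR). On D3 it had the smallest spread of the 10, at 1376 to 1445 CPM over the 6 libraries of both genotypes. Dnajb1 (ENSMUSG00000005483, chr8:83608193-83612653, plus strand), the J protein that drives HSP70, was at 128, 133 and 76.8 CPM on D0 and at 128, 92.7 and 135 CPM on D1 (log2 difference 0.08, 95% interval -0.40 to 0.56, adjusted p = 0.796, edgeR). Hsph1 (ENSMUSG00000029657, chr5:149614287-149636376, minus strand), an HSP70-related exchange factor, was at 150, 97.0 and 35.5 CPM on D0 and at 199, 143 and 127 CPM on D1, overlapping in 1 D0 library, with a log2 difference of 0.73 ± 0.38 (95% interval -0.07 to 1.53, adjusted p = 0.114, edgeR). Scaled by library totals without TMM, which moved the median of all genes up by 0.46, Hspa8 was at 0.32 in place of -0.14, and Hsph1 (1.17, adjusted p = 0.0147) and Dnajb1 (0.53, adjusted p = 0.050) passed. Of the 50-base stretches of Hspa8, 38.6% occurred in other genes, and the pseudogene Gm15459, which shared most of them, had 353752 counts in all against 479953 for Hspa8.

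**Figure D2:**
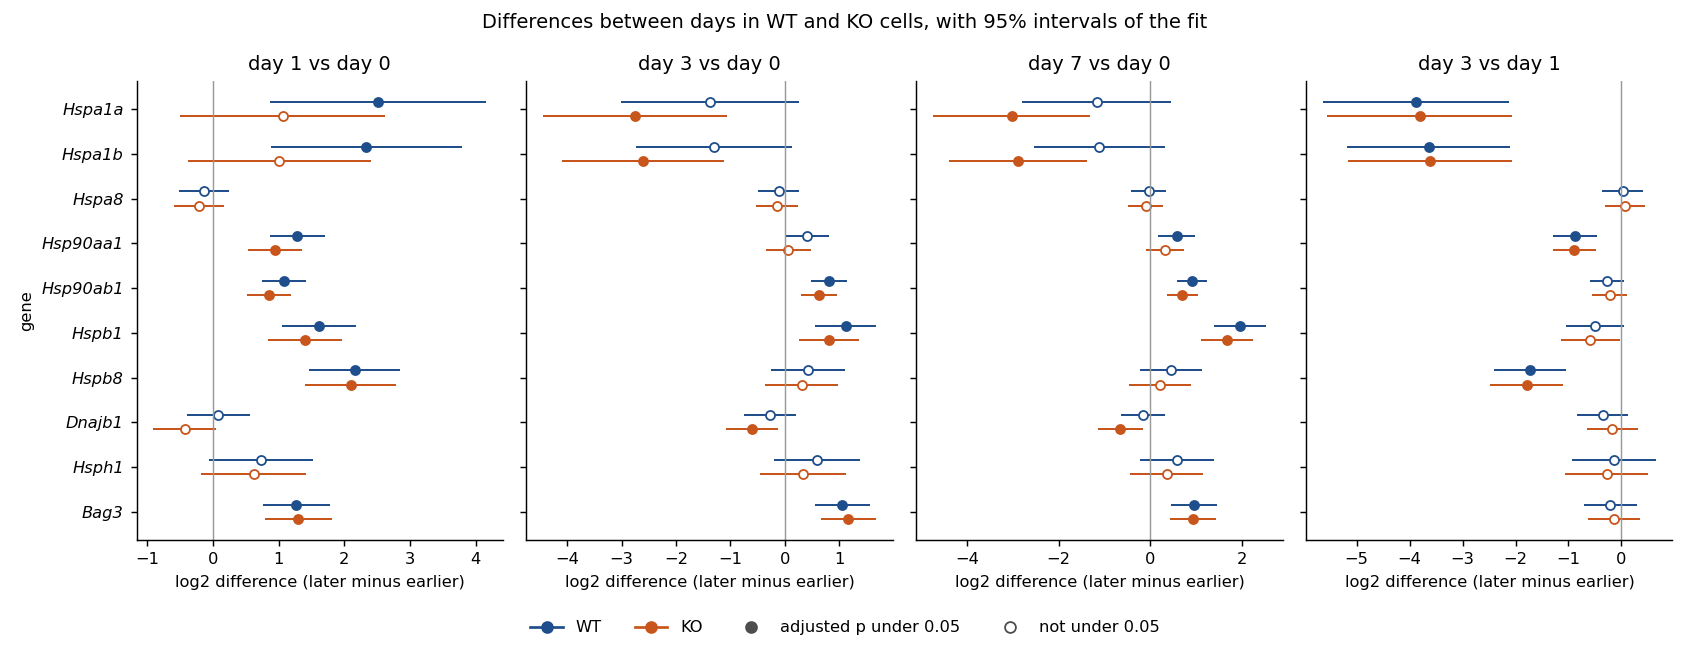
Log2 difference (later minus earlier day) for D1, D3 and D7 against D0 and for D3 against D1 in each of the 10 chaperone genes, fitted value with its 95% interval, in WT and KO, with filled symbols at an adjusted p under 0.05. The values of Hspa1a and Hspa1b lie above 0 on D1 and below it on D3 and D7, and Hspb1, Hsp90ab1 and Bag3 stay above 0 on all 3 culture days.

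Over the whole course in Krt8+/+ cells, 3 of the 10 genes were above D0 on D3 (Hsp90ab1, Hspb1 and Bag3) and 0 below, where 26.1% of all genes were called higher and 27.8% lower. On D7, 4 were above D0 (Hsp90aa1, Hsp90ab1, Hspb1 and Bag3) and 0 below, against 28.6% and 30.2% of all genes. From D1 to D3, 4 fell (Hspa1a, Hspa1b, Hsp90aa1 and Hspb8) and 0 rose, where 14.4% of all genes were called higher and 11.9% lower. From D3 to D7, edgeR called 0 of the 10, where 3.11% of all genes were higher and 3.47% lower. One gene there, Hspb1, had an unadjusted p under 0.05, and DESeq2 called it (adjusted p = 0.0262). Without replicate 3 the count on D3 against D0 was 5 in place of 3, and scaled by library totals it was 7. With library totals, 8201 of all genes were called higher there in place of 4711, and 2784 lower in place of 5025. The 7 are to be read against that larger number, and no such number is given here for the fit without replicate 3. In the other comparisons of days in Krt8+/+ cells DESeq2 called the same genes as edgeR, and no gene of the 10 had an unadjusted p under 0.05 in a direction with 0 calls. Scaled by library totals, 74.7% of all calls on D3 against D0, 66.3% on D7 against D0 and 69.0% on D3 against D1 were in the higher direction, in place of 48.4%, 48.6% and 54.9%, and on D7 against D3 it was 24.6% in place of 47.3%.

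The same comparisons were made in Krt8-/- AECs. From D0 to D1, 5 of the 10 genes rose and 0 fell, against 23.7% of all genes called higher and 26.9% lower, and the median log2 difference was 0.98 for the 10 genes and -0.01 for all genes. Hspb8 rose most, from 50.7, 52.4 and 45.9 CPM to 191, 107 and 339 CPM, with no overlap (log2 difference 2.10 ± 0.33, adjusted p = 2.84e-05, edgeR). Hspb1 went from 110, 141 and 77.6 CPM to 190, 261 and 416 CPM (1.40 ± 0.27, adjusted p = 0.000218) and Bag3 from 46.0, 49.6 and 39.2 CPM to 130, 70.7 and 131 CPM (1.3 ± 0.24, adjusted p = 0.000172). Hsp90aa1 went from 871, 1191 and 681 CPM to 1686, 1429 and 2184 CPM (0.95 ± 0.20, adjusted p = 0.000479) and Hsp90ab1 from 1133, 1425 and 921 CPM to 2138, 1836 and 2293 CPM (0.85 ± 0.16, adjusted p = 0.000162). These 5 had risen in Krt8+/+ cells as well, and the fit is the same edgeR fit.

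Hspa1a and Hspa1b did not pass on D1 in Krt8-/- cells. Hspa1a was at 103, 136 and 8.34 CPM on D0 and at 267, 60.6 and 188 CPM on D1, so it rose in replicates 1 and 3 and was lower on D1 in replicate 2. The log2 difference was 1.06 ± 0.75 (95% interval -0.51 to 2.63, adjusted p = 0.248, edgeR), or 1.38, -1.17 and 4.47 within replicates. Hspa1b was at 207, 254 and 25.7 CPM on D0 and at 501, 112 and 367 CPM on D1 (1.01 ± 0.67, 95% interval -0.39 to 2.41, adjusted p = 0.217, edgeR). That the rise passed in Krt8+/+ cells alone is no evidence of a genotype difference, which is tested below. Hspa8 (log2 difference -0.22, adjusted p = 0.339), Dnajb1 (-0.43, adjusted p = 0.123) and Hsph1 (0.62, adjusted p = 0.186) did not pass by edgeR either. Scaled by library totals, which moved the median of all genes up by 0.47, Hspa8 was at 0.26 and Dnajb1 at 0.04, and 71.8% of all calls were higher in place of 46.9%.

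On D3, Krt8-/- cells held Hspa1a at 9.94, 10.7 and 16.0 CPM and Hspa1b at 20.8, 25.9 and 33.1 CPM, and on D7 at 13.9, 8.33 and 7.97 CPM and at 28.2, 17.2 and 20.1 CPM. The D3 level was below D1 without overlap (-3.81 ± 0.84, adjusted p = 0.00260, and -3.62 ± 0.74, adjusted p = 0.00141, edgeR). It was also called below D0, where groups overlapped because of replicate 3, at -2.75 ± 0.81 for Hspa1a (adjusted p = 0.00719, edgeR; -3.35, -3.65 and 0.93 within replicates) and -2.61 ± 0.71 for Hspa1b (adjusted p = 0.00427). Dnajb1, at 163, 210 and 87.3 CPM on D0 and at 103, 105 and 94.4 CPM on D3, was called lower too (-0.61 ± 0.23, adjusted p = 0.0321, edgeR), again with overlap through replicate 3. Together 3 of the 10 genes were lower on D3 than on D0 in Krt8-/- cells and 3 higher (Hsp90ab1 0.63, Hspb1 0.81 and Bag3 1.16), against 26.6% and 25.4% of all genes. Leaving out replicate 1 left 2 calls of these 6, without Hspa1a (-2.44, adjusted p = 0.0941), Hspa1b (-2.24, adjusted p = 0.0765), Hsp90ab1 (0.62, adjusted p = 0.0523) and Dnajb1 (-0.57, adjusted p = 0.202). Leaving out replicate 2 left 3, without Hspa1a (-2.02, adjusted p = 0.115), Hspa1b (-2.03, adjusted p = 0.0678) and Dnajb1 (-0.27, adjusted p = 0.440). Without replicate 3, Hspb1 did not pass (0.56, adjusted p = 0.0691). Scaled by library totals, Dnajb1 stood at -0.05 and did not pass (adjusted p = 0.871), and 73.8% of all calls were higher in place of 48.8%.

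On D7 the same 3 genes were lower than on D0 in Krt8-/- cells, Hspa1a by a log2 difference of -3.03 ± 0.82 (adjusted p = 0.00343), Hspa1b by -2.89 ± 0.72 (adjusted p = 0.00177) and Dnajb1 by -0.65 ± 0.23 (adjusted p = 0.0196), where 29.9% of all genes were called lower. As on D3, groups of these genes overlapped through the D0 library of replicate 3. That library held 8.34, 25.7 and 87.3 CPM, against 7.97 to 13.9, 17.2 to 28.2 and 87.6 to 110 CPM on D7. Hsp90ab1 (0.70 ± 0.16), Hspb1 (1.67 ± 0.27) and Bag3 (0.93 ± 0.24) were higher, against 28.6% of all genes. From D1 to D3, 4 genes fell and 0 rose, Hspa1a, Hspa1b, Hsp90aa1 (-0.89 ± 0.20, adjusted p = 0.00280) and Hspb8 (-1.79 ± 0.33, adjusted p = 0.000535), against 10.2% of all genes called lower and 13.4% higher, and without replicate 1 the test called 1 of these, since Hspa1a (-3.22, adjusted p = 0.0857), Hspa1b (-3.02, adjusted p = 0.0664) and Hsp90aa1 (-0.87, adjusted p = 0.0770) no longer passed. From D3 to D7, Hspb1 alone rose, from 168, 204 and 206 CPM to 351, 390 and 307 CPM (0.86 ± 0.26, adjusted p = 0.0412, edgeR), where 4.4% of all genes were higher and 6.15% lower. That call was lost without replicate 1 (0.77, adjusted p = 0.211) and without replicate 2 (0.81, adjusted p = 0.246), and also with library totals (0.72, adjusted p = 0.0861). On D7 the calls were lost for Hspa1a without replicate 2 (-2.26, adjusted p = 0.0716), for Bag3 without replicate 3 (0.69, adjusted p = 0.0653), and for Dnajb1 without replicate 1 (-0.70, adjusted p = 0.109) or 2 (-0.27, adjusted p = 0.423), all by edgeR. DESeq2 called the same genes as edgeR in all 5 comparisons of days in Krt8-/- cells, and none of the 10 had an unadjusted p under 0.05 in a direction with 0 calls. Scaled by library totals, the share of all calls in the higher direction was 65.7% in place of 48.9% for D7 against D0 and 23.9% in place of 41.7% for D7 against D3. That scaling put the median log2 difference of all genes for D7 against D0 at 0.43. The value of Dnajb1 under it is not given here.

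Loss of keratin 8 moved none of the 10 chaperone genes past the test. Krt8-/- was compared with Krt8+/+ on each day and over the mean of the 4 days, and edgeR called 0 of the 10 on D0, D1, D3, D7 and over the mean, with every adjusted p at 1. No unadjusted p was under 0.05, and DESeq2 called 0 as well. Of all genes, 0.0277% were called on D0, 0.0166% on D1, 0.0166% on D3, 0.0166% on D7 and 0.0665% over the mean of the 4 days. A test of whether the genotype difference changed with day called 0 of the 10 too, where 0.00554% of all genes were called.

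Over the mean of the 4 days, the log2 difference (Krt8-/- minus Krt8+/+) was bounded closely for the abundant genes. For Hspa8 it was -0.01 (95% interval -0.20 to 0.18), for Hsp90aa1 -0.06 (-0.26 to 0.15) and for Hsp90ab1 0.07 (-0.10 to 0.23). Bag3 (0.07, -0.17 to 0.32), Dnajb1 (0.11, -0.12 to 0.35), Hspb1 (0.21, -0.06 to 0.49), Hspb8 (-0.00, -0.34 to 0.33) and Hsph1 (0.09, -0.30 to 0.49) had intervals that leave out a change of 1 log2 unit in either direction. For Hspb8 the replicate block gave 0.0056. The intervals of Hspa1a (0.20, -0.60 to 1.00) and Hspa1b (0.11, -0.59 to 0.81) were wider.

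The largest genotype values were those of Hspa1a and Hspa1b on D0. Hspa1a was higher in Krt8-/- cells by 1.37 ± 0.77 on the log2 scale (95% interval -0.23 to 2.96, adjusted p = 1, edgeR), with 1.02, 1.90 and 0.05 within replicates, and Hspa1b by 1.21 ± 0.68 (-0.20 to 2.62, adjusted p = 1), with 0.87, 1.74 and 0.30. Krt8-/- lay above Krt8+/+ in 3 of 3 replicates for each, but the groups overlapped, since both genotypes were low in replicate 3. On D1 the values were -0.08 for Hspa1a and -0.12 for Hspa1b (95% interval -1.50 to 1.27). The test of genotype by day gave an unadjusted p of 0.371 for Hspa1a and 0.311 for Hspa1b (edgeR, adjusted p = 1). On D0 the summed level of 7 airway cell markers was 5821, 11935 and 6371 CPM in Krt8+/+ cells and 14253, 14523 and 19611 CPM in Krt8-/- cells, higher in Krt8-/- cells without overlap, although none of the 7 genes was called (adjusted p = 1 for each, edgeR). On D7 it was 16.58 to 36.32 CPM. In replicate 1 the genotypes differed in sex-linked RNA, with a summed level of 4 Y-linked genes of at most 0.441 CPM in the Krt8+/+ libraries and 173 to 191 CPM in the Krt8-/- libraries, while in replicate 2 both genotypes were at or under 0.241 CPM and in replicate 3 both at 174 to 229 CPM. Xist was at 62.4 to 79.5 CPM in the Krt8+/+ libraries of replicate 1 and at 5.92 to 12 CPM in its Krt8-/- libraries, which thus held Xist beside the Y-linked RNA, and at 0 to 2.24 CPM in replicate 3. Sex and genotype cannot be told apart within replicate 1, and the part of airway cells or sex in these values was not tested.

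**Figure D3:**
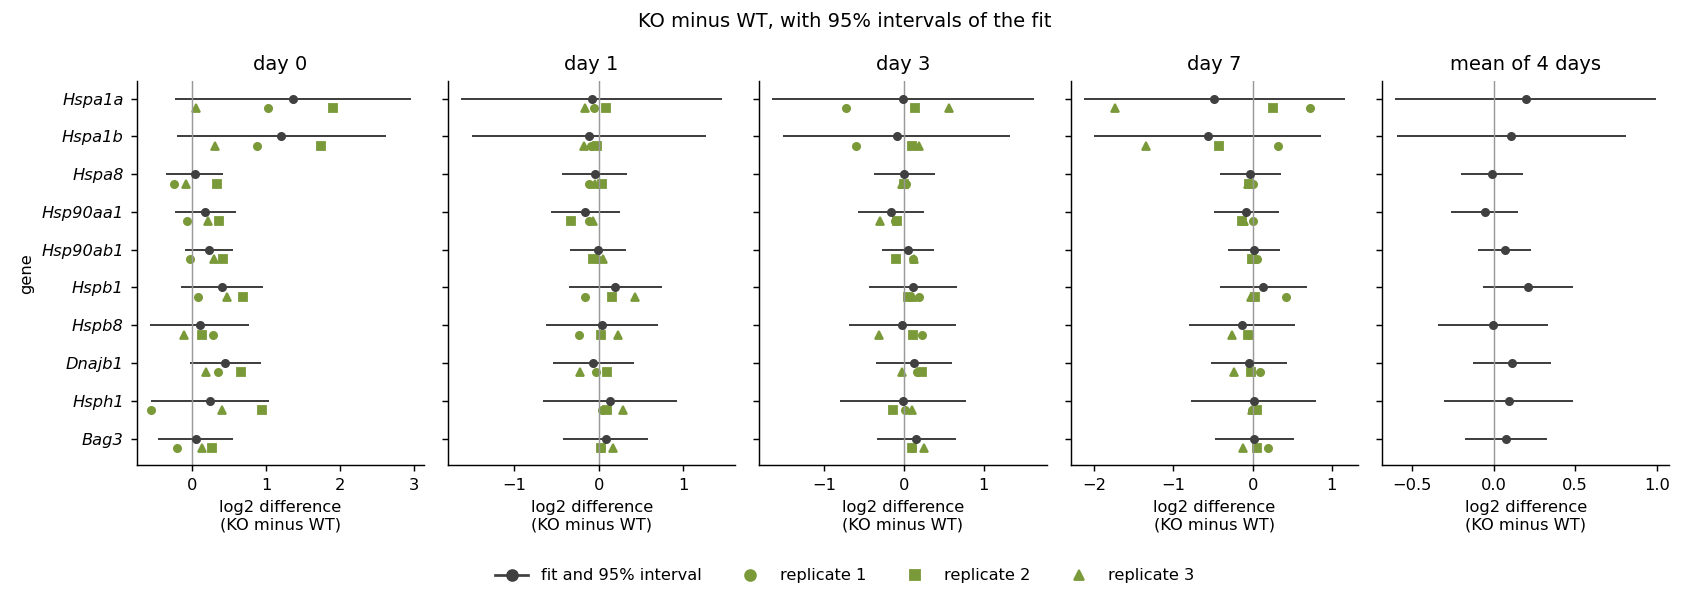
Log2 difference between KO and WT for each of the 10 chaperone genes on each day and over the mean of 4 days, fitted value with its 95% interval and, for single days, the values within replicates 1 to 3. Every interval includes 0, and those of Hspa1a and Hspa1b are the widest.

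On D0 and D1 both genotypes were lowest in the same replicate for most of the 10 genes. On D0, both libraries of replicate 3 were below all 4 other libraries for 9 of the 10 genes, all but Hspb8, where 17.5% of all genes showed that order. On D1, both libraries of replicate 2 were the lowest for 7 of the 10 (Hspa1a, Hspa1b, Hspa8, Hsp90ab1, Hspb8, Dnajb1 and Bag3), against 18.2% of all genes. The order of the other replicates was not always shared. On D0, Hspa1a, Hspa1b, Hspa8, Hsp90ab1, Hspb1, Hsph1 and Bag3 were higher in replicate 1 than in replicate 2 in Krt8+/+ cells and lower in Krt8-/- cells. The share of all genes with that swap is not given here. On D3 both libraries of replicates 1, 2 and 3 were the lowest for 1 gene each, where 6.55%, 6.69% and 10.7% of all genes showed that order. On D7 those of replicate 2 were the lowest for 3 genes (10.5% of all genes). Those of replicates 1 and 3 were so for 0 (8.58% and 16.0% of all genes). The highest of the 6 D0 libraries exceeded the lowest 16.6-fold for Hspa1a, 12.1-fold for Hspa1b and 5.23-fold for Hsph1, and 1.25-fold for Hspb8, where the median over all genes was 1.75-fold. On D1 the same ratio was 4.86 for Hspa1a, 4.76 for Hspa1b and 3.24 for Hspb8, with a median of 2.02 over all genes. On D3 it was 1.69 for Hspa1a and 1.05 for Hspa8, and on D7 it was 3.80 for Hspa1a, where the Krt8+/+ library of replicate 3 stood alone at 26.8 CPM.

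Replicate was tested as a term with 2 degrees of freedom, taking the genotypes of a replicate and day as its observations. Over all days together, edgeR called 0 of the 10 genes, where 3.37% of all genes were called. There were 2 genes, Hspb8 and Bag3, with an unadjusted p under 0.05 in edgeR's test, and DESeq2 called 1. A test within each day was added after the library values had been seen, and it describes the order above rather than testing it anew. It called 8 of the 10 on D0 (3.33% of all genes), 7 on D1 (26.0%), 0 on D3 (0.776%; 1 with an unadjusted p under 0.05) and 1 on D7 (7.92%). Hspa1b had an adjusted p of 0.00212 on D0 and 0.000590 on D1, Hspa1a of 0.00679 and 0.00452, and Hspb8 of 1.33e-05 on D1. Bag3 (0.000294 on D1) was the gene called on D7 (0.0138). Hsph1 (0.00261) and Dnajb1 (0.00219) were called on D0, and Hspa8 (0.00886), Hsp90aa1 (0.00822), Hsp90ab1 (0.0206) and Hspb1 (0.0262) were the others, by the same edgeR test.

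**Figure D4:**
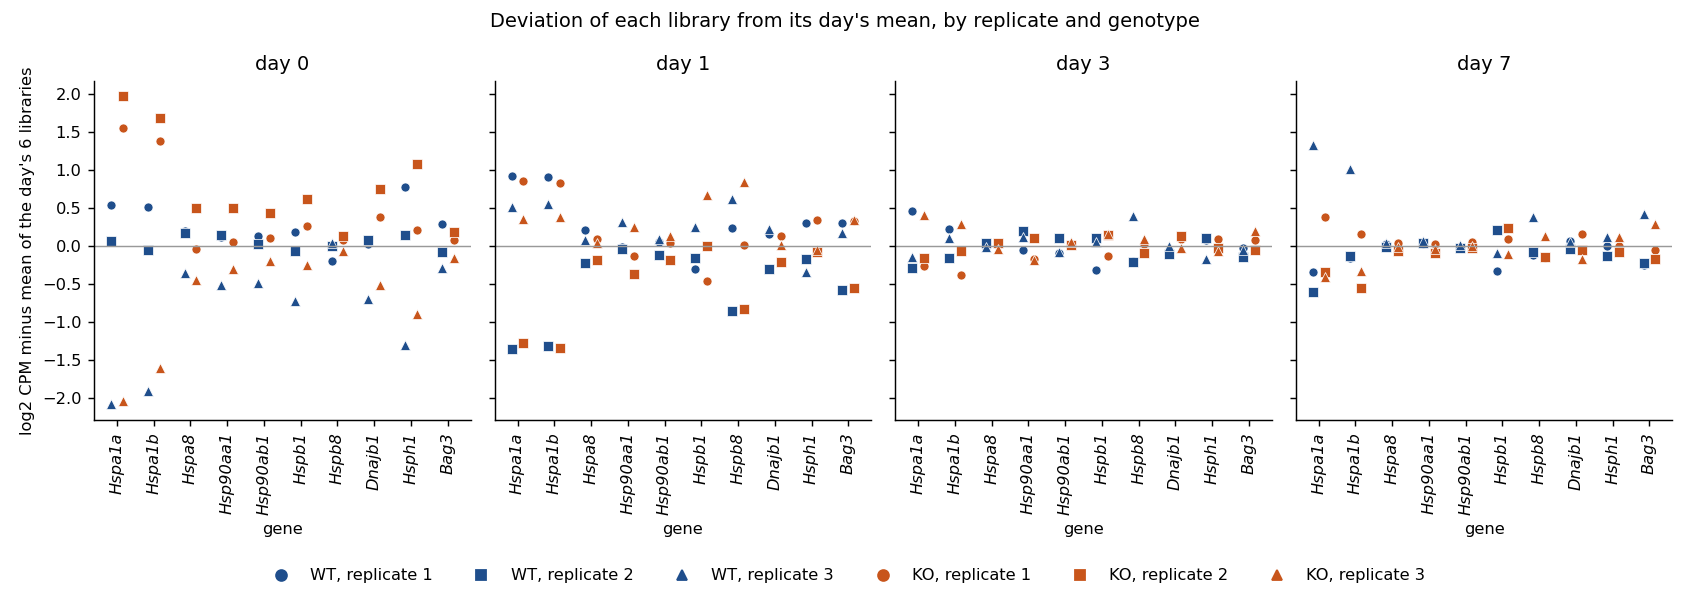
Deviation of each library from the mean of its day's 6 libraries (log2 CPM) for each of the 10 chaperone genes, in 1 panel per day, with marker shapes for replicates and colours for genotype. On D0 the markers of replicate 3 are lowest for 9 genes, on D1 those of replicate 2 for 7, and on D3 the markers lie closer to 0.

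Other measures differed between the same libraries. On D0, summed levels of 8 macrophage markers were 150.6, 76.9 and 26.02 CPM in Krt8+/+ cells and 90.89, 86.26 and 27.66 CPM in Krt8-/- cells, lowest in replicate 3 in both, and those of the fibroblast markers were 994.3, 506.8 and 295.6 CPM and 731.9, 569.9 and 332.9 CPM, also lowest in replicate 3. The AEC2 sum on D0 was highest in replicate 3, at 349132 and 355461 CPM. On D1 the AEC2 sum was 108685, 19661 and 87388 CPM in Krt8+/+ cells and 102015, 18436 and 81006 CPM in Krt8-/- cells, lowest in replicate 2 in both genotypes, as were Hspa1a and Hspa1b. Immediate early genes, which respond to cell handling within an hour, were also looked at. Fos was at 580, 118 and 160 CPM in Krt8+/+ cells on D0 and at 811, 254 and 105 CPM in Krt8-/- cells. Jun was at 572, 244 and 314 CPM and at 687, 393 and 210 CPM on D0, and Egr1 at 234, 69.0 and 119 CPM and at 225, 98.9 and 63.8 CPM. Replicate 1 was highest for all 3 genes on D0 in both genotypes, whereas replicate 2 and replicate 3 changed order between genotypes. On D1, Fos was at 101, 40.2 and 70.9 CPM in Krt8+/+ cells and at 109, 41.2 and 65.0 CPM in Krt8-/- cells. Jun was then at 455, 191 and 402 CPM and at 349, 209 and 340 CPM, and Egr1 at 365, 73.5 and 121 CPM and at 267, 81.4 and 109 CPM. Replicate 2 was the lowest on D1 in both genotypes for these 3 genes, as it was for the 7 chaperone genes named above. The part of these cells and genes in the spread of the chaperones was not tested.

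**Figure D5:**
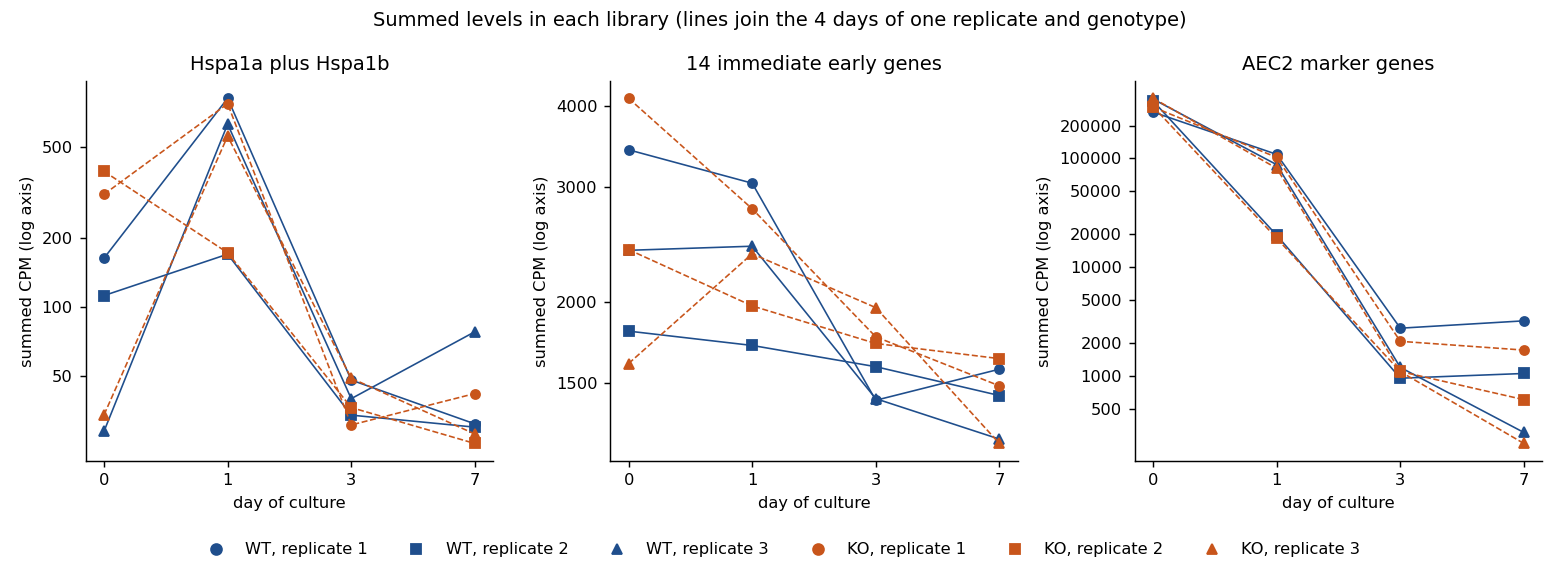
Summed level per library (CPM, log axis) against day for Hspa1a plus Hspa1b, for 14 immediate early genes and for the AEC2 markers, lines joining the 4 days of 1 replicate and genotype (solid WT, dashed KO). The D1 point of replicate 2 is low for Hspa1a plus Hspa1b and for the AEC2 list (18436 and 19661 CPM) in both genotypes.

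Without the D1 libraries of replicate 2, an alternative chosen after seeing the data, the D1 rise of Hspa1a was 3.03 in Krt8+/+ cells (adjusted p = 0.00264) and 1.58 in Krt8-/- cells (adjusted p = 0.0844), and that of Hspa1b in Krt8-/- cells was 1.53 (adjusted p = 0.0503). Without the D0 libraries of replicate 3, likewise chosen afterwards, Hspa1a rose by 2.06 in Krt8+/+ cells (adjusted p = 0.0135) and was at 0.52 in Krt8-/- cells (adjusted p = 0.502). In that fit Hspa8 (-0.42, adjusted p = 0.0325) and Dnajb1 (-0.72, adjusted p = 0.000892) were lower on D1 than on D0 in Krt8-/- cells, and the count of genes called there was 7 in place of 5. All these values are from edgeR.

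The rest of the chaperone system, taken as 8 lists with 66 tested genes, moved in both directions. These lists were also chosen with earlier results of these data known. In Krt8+/+ cells from D0 to D1, 31 of the 66 rose and 15 fell by edgeR, where 26.2% of all genes tested were called higher and 28.5% lower, and the counts of each list below are to be read against these shares. All 8 subunits of the CCT chaperonin, the ring that folds actin and tubulin, rose, with a median log2 difference of 1.45 against 0 over all genes, and Cct8 (1.70) and Cct6a (1.62) rose most. The 8 were also higher than D0 on D3 and on D7, and in Krt8-/- cells on all 3 culture days. Of the HSP90 co-chaperones, which load or time HSP90, 9 of 14 rose and 1 fell, Ppid by 1.34 upward and Fkbp4 by -1.19. Among chaperones of the endoplasmic reticulum and mitochondria, 4 of 7 rose and 1 fell, and the mitochondrial Hspa9 (1.87) and Hspe1 (1.46) rose most.

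Of the J proteins other than Dnajb1, 7 of 15 fell and 5 rose, with Dnajb5 (-1.92) and Dnaja4 (-1.07) the farthest. Of the other HSP70 genes, 1 of 8 rose (Hspa4, 1.3) and 1 fell (Hspa13, -1.13). Of the other BAG proteins and exchange factors, 2 of 6 rose and 3 fell, with Bag4 at -1.64 and Bag2 at 1.21. Cryab, the small heat shock protein αB-crystallin, rose from 62.5 ± 8.67 CPM to 364 ± 71.9 CPM (SD, n = 3; log2 difference 2.54, adjusted p = 2.31e-08, edgeR) and was at 397 ± 83.0 CPM on D7, while Hspb6 fell (-1.51), and those were the calls among 5 tested genes of that list. Of 3 tested heat shock factor genes, Hsf2 rose (1.09, adjusted p = 0.0220), Hsf4 fell (-1.95, adjusted p = 0.000249), and Hsf1, whose product drives the heat shock response, was not called. Of 14 immediate early genes, 3 rose and 6 fell, with Fos at -2.02 (adjusted p = 0.00698), Jun at -0.11 (adjusted p = 0.818) and Egr1 at 0.41 (adjusted p = 0.577).

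In Krt8-/- cells, 31 of the 66 rose and 14 fell from D0 to D1, where 23.7% of all genes were called higher and 26.9% lower. On D3 against D0, 27 of the 66 were higher and 15 lower in Krt8+/+ cells (26.1% and 27.8% of all genes), and 29 and 12 in Krt8-/- cells (25.4% and 26.6%). On D7 they were 31 and 16 in both genotypes, against 28.6% and 30.2% of all genes in Krt8+/+ cells and 28.6% and 29.9% in Krt8-/- cells. From D1 to D3 the counts lay near the shares of all genes, with 12 higher and 10 lower in Krt8+/+ cells (14.4% and 11.9% of all genes) and 8 and 8 in Krt8-/- cells (13.4% and 10.2%). From D3 to D7, 4 rose and 1 fell in Krt8+/+ cells (3.11% and 3.47%) and 5 rose and 5 fell in Krt8-/- cells (4.4% and 6.15%). None of the 66 was called between genotypes by edgeR on any day or over the mean of the days.

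The genes whose group means ran closest to each member, over the 8 group means of log2 CPM after centring, were read off as a description. Closeness is the root mean square difference in log2 units. For Hspa1a they were 2900060B14Rik (0.33) and Fam71a (0.36), and for Hspa1b Gp5 (0.34) and Oprd1 (0.35). Hspa1a and Hspa1b were closer to each other (0.13) than to any of these. The nearest genes of the other members came closer. Hspb8 was nearest to Gm18899 (0.12) and Csrnp1 (0.14), and Hspb1 to Psph (0.12) and Gm12185 (0.14). For Bag3 the nearest were Prkci (0.05) and Zpr1 (0.07), for Hsph1 Zc3hc1 (0.05) and G3bp1 (0.05), and for Dnajb1 Gm14176 (0.07) and Med8 (0.08). Hsp90ab1 was nearest to Zc3hc1 (0.05) and Banf1 (0.06), and Hsp90aa1 to Gm6218 (0.06) and Rpl13-ps1 (0.06). Hspa8 was nearest to Gm15459 (0.03), with which it shares 34.6% of its 50-base stretches, and to Cptp (0.03). The points are the same 8 groups for all genes and share their libraries.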

How the data were processed

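RNA was sequenced from alveolar epithelial cells in 24 libraries, 3 for every genotype on every day. What the authors deposited is a table of estimated counts per Ensembl gene (whole numbers, no normalization). The submitters' processing notes name cutadapt 2.3, STAR 2.7.8a, RSEM 1.3.3 and GRCm38, without saying which made the counts. The study compared scores and single genes with tests of group means, and no count model for this table is given in the sources used here. The table has 55421 genes and 5 reporter genes with 0 counts, and library totals ran from 10184439 to 19483386. No 2 libraries of a group were alike within sampling noise (the lowest chi-square per gene was 10.2).

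Estimated counts were used as deposited, being whole already. Genes passing edgeR's filterByExpr (minimum count 10, minimum total 15) were scaled by TMM and fitted in R 4.3.3 with edgeR 4.0.16 (quasi-likelihood F test, 1 fit of 8 groups, 16 residual degrees of freedom), with Benjamini-Hochberg adjustment over 18046 genes and a threshold of 0.05. Library log2 CPM values used a prior count of 2, and intervals are at 95%. DESeq2 1.42.0, its size factors, library totals, no filter, the 6 libraries of a comparison alone, a replicate block, each replicate left out, and Hspa1a and Hspa1b summed were the alternatives. The scripts were tested on simulated data.

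The members and gene lists were chosen with earlier results of these data known. By name the text gives all 10 members, the 2 genes of each chaperone list that moved farthest on D1 in Krt8+/+ cells among those called, Fos, Jun and Egr1, and the 2 genes outside the 10 most like each member. Hsf1 and the genes that share sequence with a member were named outside that rule, after their values were seen. The labels give 1 batch to each replicate number across genotypes and days, so the numbers pair the samples. Deviations of same-numbered libraries from their group means correlated between -0.03 and 0.38 across genes in comparisons of days and between 0.06 and 0.55 in comparisons of genotypes. The labels do not say whether a replicate is 1 animal or several, and p-values measure the spread between these libraries. Shared sequence was counted over 50-base stretches of the GRCm38 transcripts.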

Additional observations from a re-analysis of the deposited data

Results flagged for a closer look

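Hspa1b was higher in Krt8-/- than in Krt8+/+ cells in 3 of 3 replicates on D0 (0.87, 1.74 and 0.30 on the log2 scale in replicates 1, 2 and 3) and lower in 3 of 3 on D1 (-0.09, -0.02 and -0.18). The genotype difference on D0 exceeded that on D1 by 1.32 log2 units in the fit. The D1 values lie close to 0, so they do not show a change of sign, and that contrast of these days was not tested on its own. The test of genotype by day over all 4 days gave an unadjusted p of 0.311 (adjusted p = 1, edgeR), and the libraries of the genotypes overlapped on each of these days.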

How the results depend on the processing

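Of 40 member differences called, all 40 were kept with DESeq2 size factors, with the DESeq2 test, with no filter and with Hspa1a and Hspa1b summed. The replicate numbers pair the samples, and with the replicate block all 40 were kept and no count of calls changed (7 for Krt8+/+ D1 against D0, as without it), while Hspb8 over the mean of the 4 days came to 0.0056. The block gives a replicate the same shift on all days, so it cannot take up a replicate order that differs between days. No genotype test was paired within replicate and day, so whether such pairing would change a call was not tested. Library totals kept 37, the 6 libraries of a comparison alone kept 38, and leaving out replicate 1, 2 or 3 kept 27, 34 and 36. None of the 40 changed sign. Of 1106 alternative values of the 110 differences not called, 87 had the other sign and 26 passed the threshold, 1 of them with the other sign (Hspa8 for Krt8+/+ D3 against D0, with library totals).

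Members called moved as follows. In Krt8+/+ cells D3 against D0 gave 7 with library totals and 3 to 5 with a replicate left out, and D7 against D3 gave 1 with the DESeq2 test, with no filter and with 6 libraries. Beside those 7, library totals called 8201 of all genes higher on D3 against D0, in place of 4711. In Krt8-/- cells, leaving out a replicate gave 2 to 5 for D3 against D0, 1 to 4 for D3 against D1 and 0 to 1 for D7 against D3, which was 0 with library totals. Replicate gave 1 with the DESeq2 test and 8, 7 and 1 within D0, D1 and D7. Hspa8 on D1 was 0.32 (Krt8+/+) and 0.26 (Krt8-/-) with library totals and 0.070 in Krt8+/+ cells without the D1 libraries of replicate 2. Dnajb1 was 0.042 in Krt8-/- cells with library totals and -0.14 in Krt8+/+ cells without the D0 libraries of replicate 3. With a replicate left out, the D1 difference ran from -0.32 to 0.14 for Hspa8 and from -0.23 to 0.45 for Dnajb1 in Krt8+/+ cells and from -0.44 to 0.24 and -0.73 to 0.043 in Krt8-/- cells. The mean genotype difference ran likewise from -0.039 to 0.24 for Hspa1b, -0.078 to 0.028 for Hspa8, -0.037 to 0.043 for Hspb8 and -0.038 to 0.25 for Hsph1. The cause of these moves was not tested. Fits with a replicate left out have fewer samples, and library totals shift the median of all genes by 0.46 on D1 in Krt8+/+ cells. The lowest member level in any library was 6.97 CPM (Hspa1a), so at these totals counting error weighs most for that gene.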
